A study of Mus musculus with 12 samples.

Results

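Wnt ligands, their cell surface receptors, their secreted inhibitors and a small set of nuclear and target genes were followed in mouse femoral head cartilage explants. All genes were included whose symbol on the array is Wnt, Fzd, Sfrp or Dkk with a number, together with Frzb, Wif1, Lrp5, Lrp6, Axin2, Lef1 and Tcf7. This gave 44 of the 34509 gene symbols on the array, on 66 probes. There were 19 ligands, 12 receptors, 10 secreted inhibitors and 3 nuclear or target genes. Wnt proteins are secreted, lipid-modified signals that bind Frizzled receptors, and with the co-receptors LRP5 and LRP6 they stabilise beta-catenin, which acts with TCF and LEF factors in the nucleus. Secreted frizzled-related proteins (Sfrp1, Sfrp2, Sfrp4, Sfrp5 and Frzb) and Wif1 bind Wnt proteins outside the cell, whereas Dickkopf proteins such as Dkk1 bind the LRP co-receptors. In cartilage, Wnt signalling is known to influence chondrocyte maturation, and Frzb was first described as a cartilage product.

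The explants came from TS-4/5∆cat mice aged 21 days, in which in-frame deletions remove the catalytic domains of ADAMTS-4 and ADAMTS-5, the principal enzymes that cleave aggrecan. All 12 arrays, controls included, carried these deletions and no wild type array was analysed here. Explants were left untreated, or treated for 3 days with 10 ng/ml IL-1α, an inflammatory cytokine, or with 10 µM retinoic acid, the active metabolite of vitamin A. Each treatment had 4 arrays, 2 in batch 1 from the line labelled Donut and 2 in batch 2 from the line labelled Gertrude, so line and batch cannot be told apart. The labels place 4 hips in a well and 24 h in medium with 10% serum before treatment, while the study's methods describe 3 separate unpooled mice per treatment, fewer than the 4 arrays, and serum-free medium, and neither ties an array to a mouse. The p-values therefore measure the spread between these arrays, which may be partly technical. Detected probes numbered 13786 to 14965 per array in batch 1 and 16732 to 19485 in batch 2. The retinoic acid target Cyp26b1, which breaks down retinoic acid, had a log2 intensity of 9.81 ± 0.54 (SD, n = 4) on untreated arrays and 13.75 ± 0.53 with retinoic acid, and the IL-1 target Nos2 was detected on all 4 IL-1α arrays and on no other array.

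A detection p under 0.05 on at least 4 of the 12 arrays was required of a probe, and 25 of the 44 genes passed. The probes of 13 of them were detected on all 12 arrays. By role, 8 of 19 ligands, 10 of 12 receptors, 5 of 10 secreted inhibitors and 2 of 3 nuclear or target genes passed. The ligands below this requirement were Wnt1, Wnt2, Wnt3a, Wnt7a, Wnt8a, Wnt8b, Wnt9b, Wnt10a, Wnt11 and Wnt16, detected on no array, and Wnt3, detected on 3. Among receptors, Fzd10 was detected on 3 arrays and Fzd4 on 1. Among inhibitors, Sfrp4 was detected on 2 arrays, Dkk1 on 1, and Dkk2, Dkk4 and Sfrp2 on none. Tcf7, one of the nuclear partners of beta-catenin, was detected on no array. Not detected means only that the probe was not above background in this tissue. Wnt2b and Wnt7b passed through the retinoic acid arrays alone. Of the 5 arrays that detected Fzd3, 4 had retinoic acid, and of the 5 that detected Sfrp5, 4 were untreated. Neither would have passed without those arrays. Lef1, detected on 2 untreated arrays, 2 IL-1α arrays and 1 retinoic acid array, would not have passed without its untreated arrays. Counts over the genes that passed are therefore given as description.

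**Figure D1:**
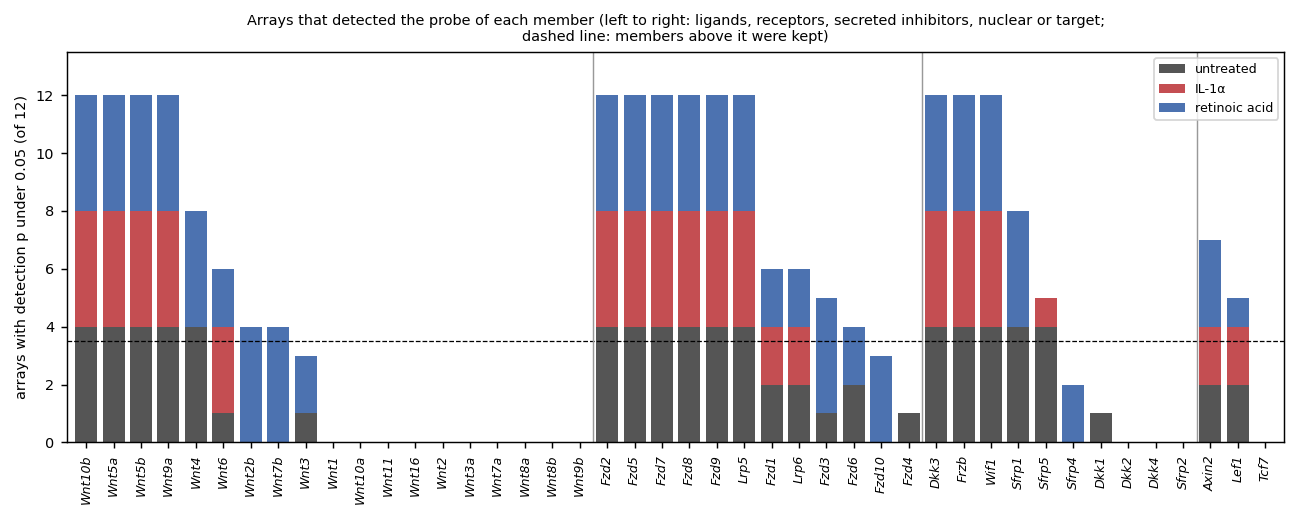
The number of arrays, of 12, on which the probe of each of the 44 genes had a detection p under 0.05, stacked by treatment (4 arrays each). The dashed line lies just below the 4 arrays required: 25 genes reach 4 or more, 13 of them 12, and the bars of Wnt2b and Wnt7b hold retinoic acid arrays only.

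A gene was called when its adjusted p was under 0.05 in the limma fit across all 18200 probes that passed. With retinoic acid against untreated cartilage, 9 of the 25 genes were higher and 6 lower, where 18.2% of all probes were called higher and 17.1% lower. The higher genes were the ligands Wnt2b, Wnt4 and Wnt7b, the receptors Fzd1, Fzd3 and Lrp5, the inhibitors Dkk3 and Sfrp1, and Axin2. The lower genes were the inhibitors Frzb, Sfrp5 and Wif1, the receptor Fzd9, the ligand Wnt5b and Lef1. With IL-1α against untreated cartilage, 1 gene was higher, Wnt9a, and 9 were lower, where 15.2% of all probes were called higher and 14.1% lower. The lower genes were Dkk3, Frzb, Sfrp1, Sfrp5, Wif1, Fzd2, Fzd9, Wnt4 and Lef1. With retinoic acid against IL-1α, 8 genes were higher (Axin2, Dkk3, Fzd1, Fzd3, Sfrp1, Wnt2b, Wnt4 and Wnt7b) and 3 lower (Fzd9, Wnt5b and Wnt9a), beside 15.2% and 15.8% of all probes. These comparisons share arrays, the first pair of them the untreated ones, so each is given by its own values. The median log2 fold change of the 25 genes was 0.05 with retinoic acid, beside 0.02 over all probes, and -0.23 with IL-1α, also beside 0.02. Between retinoic acid and IL-1α the medians were 0.09 and -0.03.

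**Figure D2:**
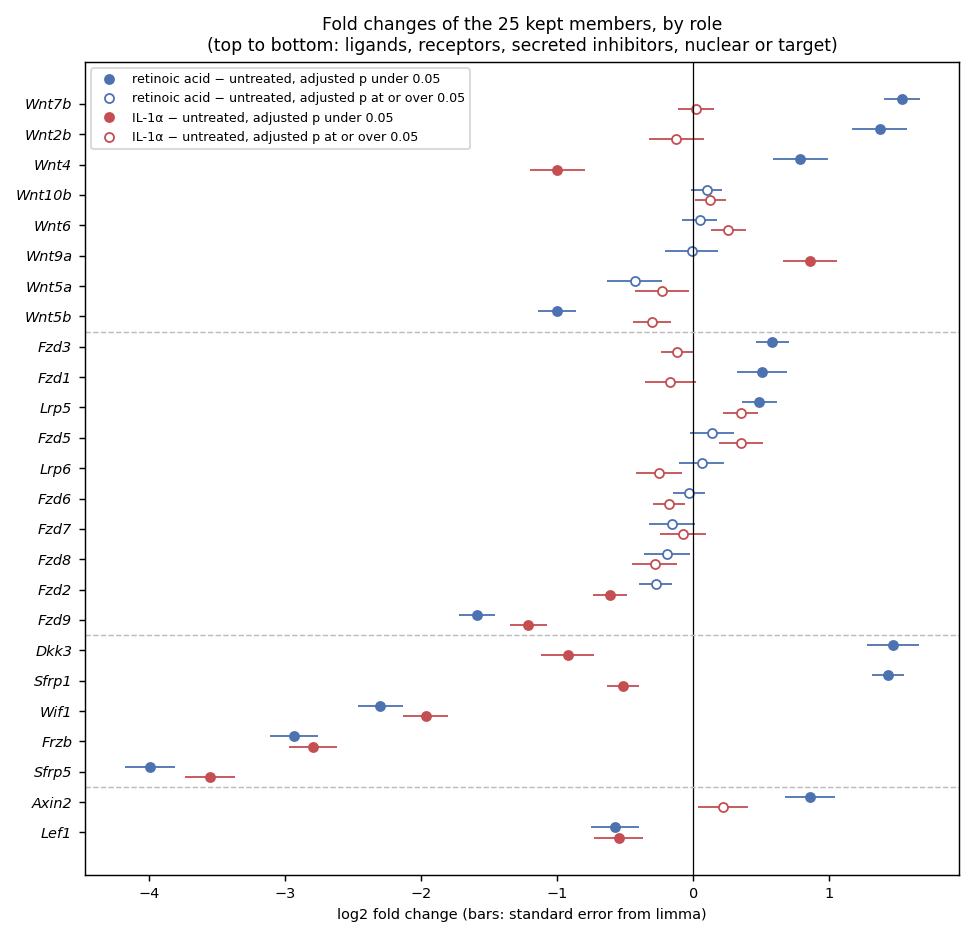
Log2 fold changes of the 25 genes that passed the detection requirement, with standard errors from limma (bars), for retinoic acid against untreated (blue) and IL-1α against untreated (red), grouped by role. Filled points were called; Sfrp5, Frzb and Wif1 lie furthest to the left for both treatments, while Dkk3 and Sfrp1 lie to the right for retinoic acid and to the left for IL-1α. Where a gene was not detected in one group the point is the measured difference and understates the fold.

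RefSeq promoter sequences (250 bases before to 50 after each start, GRCm38.p6) were found for 30 of the 44 genes, on 37 promoters, and for 15 of the 25 genes that passed. They are shown for inhibitors and ligands that changed by a log2 value of at least 1 and had an entry. The stretch of Frzb is chr2:80447389-80447646, minus strand, that of Sfrp5 chr19:42202253-42202502, minus strand, that of Wif1 chr10:121033754-121034003, plus strand, that of Wnt4 chr4:137277385-137277634, plus strand and that of Wnt2b chr3:104961710-104961959, minus strand. Wnt5b has 3 starts, of which the stretches with a motif match are shown, chr6:119544348-119544597, minus strand (start A) and chr6:119449387-119449636, minus strand (start B). Each is written 5′ to 3′ on the strand of the gene and ends at the base before the start, except that of Frzb, which runs on through base 8 of the transcript. Capitals mark a match to the AP-1 motif TGANTCA, the TCF/LEF motif CTTTGAA or CTTTGAT, or the nuclear receptor half-site AGGTCA, on either strand.
Frzb: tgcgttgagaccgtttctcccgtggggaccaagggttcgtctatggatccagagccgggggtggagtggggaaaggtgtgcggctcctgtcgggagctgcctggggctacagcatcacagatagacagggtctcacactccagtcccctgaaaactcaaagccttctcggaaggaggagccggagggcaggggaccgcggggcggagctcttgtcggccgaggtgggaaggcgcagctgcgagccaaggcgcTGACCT
Sfrp5: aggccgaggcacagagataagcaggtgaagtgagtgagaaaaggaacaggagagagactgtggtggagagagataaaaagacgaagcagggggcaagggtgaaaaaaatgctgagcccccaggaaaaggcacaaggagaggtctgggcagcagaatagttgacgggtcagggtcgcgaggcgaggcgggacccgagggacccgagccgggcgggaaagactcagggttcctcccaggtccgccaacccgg
Wif1: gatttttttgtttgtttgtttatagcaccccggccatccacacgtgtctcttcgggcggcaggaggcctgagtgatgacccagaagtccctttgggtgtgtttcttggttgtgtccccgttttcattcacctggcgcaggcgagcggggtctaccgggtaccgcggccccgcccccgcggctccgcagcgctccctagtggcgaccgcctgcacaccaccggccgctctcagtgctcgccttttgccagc
Wnt5b start A: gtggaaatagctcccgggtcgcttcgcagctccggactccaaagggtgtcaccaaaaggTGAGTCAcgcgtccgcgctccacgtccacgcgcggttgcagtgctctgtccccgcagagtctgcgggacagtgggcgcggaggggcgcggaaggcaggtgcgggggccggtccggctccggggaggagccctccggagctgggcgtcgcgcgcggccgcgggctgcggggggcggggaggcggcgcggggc
Wnt5b start B: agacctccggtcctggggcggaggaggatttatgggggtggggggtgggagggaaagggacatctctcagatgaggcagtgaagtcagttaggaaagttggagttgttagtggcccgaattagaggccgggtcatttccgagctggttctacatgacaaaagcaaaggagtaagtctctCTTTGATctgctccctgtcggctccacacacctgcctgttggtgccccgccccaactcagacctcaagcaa
Wnt4: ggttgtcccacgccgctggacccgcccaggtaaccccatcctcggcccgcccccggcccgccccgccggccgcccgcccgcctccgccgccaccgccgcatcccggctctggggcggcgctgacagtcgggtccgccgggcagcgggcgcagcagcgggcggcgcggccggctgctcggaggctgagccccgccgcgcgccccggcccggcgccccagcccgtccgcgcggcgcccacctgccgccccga
Wnt2b: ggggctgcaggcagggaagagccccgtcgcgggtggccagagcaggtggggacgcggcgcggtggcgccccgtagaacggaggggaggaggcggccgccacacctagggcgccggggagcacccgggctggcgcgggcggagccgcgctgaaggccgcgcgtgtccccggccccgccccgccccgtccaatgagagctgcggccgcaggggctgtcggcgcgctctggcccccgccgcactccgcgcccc

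The match of Frzb is the half-site on the reverse strand, at bases 3 to 8 after the start. Start A of Wnt5b holds the AP-1 motif at -191 to -185, a palindrome read on both strands, and start B holds the TCF/LEF motif at -71 to -65. The half-site was found in 3 of the 37 promoters (Frzb, Tcf7 and Wnt16), the TCF/LEF motif in 3 (Dkk1, Wnt11 and Wnt5b) and the AP-1 motif in 1. Over all 32851 promoters of the table, 16.3%, 8.65% and 7.81% held them. An NF-kappaB motif was found in 4 of the 37 promoters (Fzd5, Sfrp2, Wnt10b and Wnt16) and in 8.46% of all. The direct repeat spaced by 5 bases (DR5) was searched with a looser half-site, RGKTCA, where R is A or G and K is G or T. It was found in 0.0974% of all and in no promoter of the 37. The 250 bases before the start were 64.4% G and C in Frzb, 59.6% in Sfrp5, 62.8% in Wif1, 75.2% and 55.6% at starts A and B of Wnt5b, 80.8% in Wnt2b and 85.2% in Wnt4, beside a median of 52.4% over all promoters. Their CpG dinucleotides numbered 16, 13, 21, 35, 7, 36 and 44 in that order, beside a median of 6. A match is a description of letters and not a site of binding.

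Values on single arrays are log2 intensities after background correction and quantile normalisation, listed as batch 1 replicates 1 and 2 and then batch 2 replicates 1 and 2. They can be compared between arrays for one probe, not between probes. Where no array of a group detected a probe, the brighter group is given as a lower bound, at least N-fold, against the higher of the dim probe's own value and the lowest signal among detected probes of each array, which lay between 4.86 and 5.48 on the log2 scale. For a gene whose values do not overlap between treatments the two-sided exact permutation test over 8 arrays gave 0.0286, the smallest p that its 70 splits allow.

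The probes that represent the ligands Wnt2b and Wnt7b were detected with retinoic acid only. Wnt7b, a ligand known from bone and epithelial development, read 4.47, 4.48, 4.46 and 4.49 on untreated arrays and 4.61, 4.43, 4.48 and 4.47 with IL-1α. With retinoic acid it read 5.72, 5.94, 5.99 and 6.37. All 4 retinoic acid arrays lay above all others, and the level was at least 1.85-fold higher than untreated and at least 1.69-fold higher than IL-1α. Wnt2b, a relative of Wnt2, read 4.50, 4.73, 4.64 and 4.57 untreated and 4.44, 4.51, 4.53 and 4.46 with IL-1α. With retinoic acid it read 5.43, 5.46, 6.57 and 6.47, so that both batch 2 arrays were above both batch 1 arrays. This was at least 1.81-fold above untreated and at least 1.66-fold above IL-1α. Since both probes were kept through the retinoic acid arrays alone, no p-value is given for these differences. A second Wnt2b probe did not pass the detection requirement and did not show the rise. It was detected on 1 array, which was not a retinoic acid array. Its means were 4.93 untreated, 4.86 with IL-1α and 4.87 with retinoic acid.

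Wnt4, a ligand expressed at forming joints and in maturing chondrocytes, stood between background with IL-1α and its highest values with retinoic acid. It read 5.46, 5.64, 5.53 and 5.53 on untreated arrays. On IL-1α arrays it read 4.55, 4.48, 4.58 and 4.54, not detected on any, and untreated cartilage was at least 1.22-fold higher (adjusted p = 0.00278). On retinoic acid arrays it read 6.93, 6.78, 5.78 and 5.81. The values of the 3 treatments did not overlap. Wnt4 was higher with retinoic acid than untreated by a log2 value of 0.79 ± 0.20 (SE, adjusted p = 0.00862), and at least 2.10-fold higher than with IL-1α (adjusted p = 1.77e-05). Within the batches the rise over untreated was 1.30 in batch 1 and 0.27 in batch 2, and in a fit of batch 2 alone it was not called (adjusted p = 0.243).

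Wnt5b, a ligand of the beta-catenin-independent branch made by growth plate chondrocytes, fell with retinoic acid. Untreated arrays read 8.55, 8.43, 7.57 and 7.31, and retinoic acid arrays 7.58, 7.36, 6.40 and 6.51. The ranges overlapped across batches, and within each batch both retinoic acid arrays were lower than both untreated arrays. Wnt5b fell by 1.00 ± 0.14 on the log2 scale (adjusted p = 9.75e-05), by 1.02 within batch 1 and 0.99 within batch 2, and the exact permutation p without batch was 0.143. With IL-1α it read 7.82, 8.15, 7.29 and 7.40, a difference of -0.30 ± 0.14 from untreated (adjusted p = 0.124). Retinoic acid lay below IL-1α by -0.70 ± 0.14 (adjusted p = 0.00172).

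Wnt9a, another ligand of forming joints, was the only gene of the set called higher with IL-1α. It read 6.51, 6.20, 6.06 and 6.16 untreated and 7.39, 7.41, 6.73 and 6.84 with IL-1α, with no overlap. The rise was 0.86 ± 0.20 on the log2 scale (adjusted p = 0.00581), 1.05 in batch 1 and 0.67 in batch 2, and with no detection filter it was not called (adjusted p = 0.0514). With retinoic acid it read 5.79, 6.19, 6.34 and 6.56, a difference of -0.01 ± 0.20 from untreated (adjusted p = 0.971). Retinoic acid lay below IL-1α by -0.87 ± 0.20 (adjusted p = 0.00424), although in batch 2 alone this was -0.33 and not called (adjusted p = 0.181). Wnt5a, Wnt6 and Wnt10b were called in none of the 3 comparisons. Wnt5a, the sister ligand of Wnt5b, averaged 7.17 ± 0.18 (SD, n = 4) untreated, 6.94 ± 0.31 with IL-1α and 6.74 ± 0.39 with retinoic acid. Its difference with retinoic acid was -0.43, with an unadjusted 95% interval of -0.86 to -0.001 and an adjusted p of 0.113. Wnt10b averaged 5.72, 5.84 and 5.82 in that order, and Wnt6, detected on 6 of 12 arrays, 5.04, 5.30 and 5.09.

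Of the receptors that passed the detection requirement, Fzd9 had the largest change from untreated. It read 8.67, 8.74, 8.03 and 7.74 on untreated arrays, 7.18, 7.46, 6.69 and 7.02 with IL-1α, and 7.08, 7.001, 6.38 and 6.37 with retinoic acid. Every untreated array lay above every treated one. Fzd9 fell by 1.59 ± 0.13 with retinoic acid on the log2 scale (adjusted p = 9.91e-07) and by 1.21 ± 0.13 with IL-1α (adjusted p = 2.88e-05). The retinoic acid and IL-1α arrays overlapped, and their difference of -0.38 ± 0.13 (adjusted p = 0.0454) was no longer called when any one of 9 of the 12 arrays was left out.

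The other called receptors moved by less than a log2 value of 1. Fzd3, a receptor studied mainly in axon guidance, averaged 4.96 ± 0.10 (SD, n = 4) untreated, where 1 array detected it, and 5.54 ± 0.09 with retinoic acid, where all 4 did. The rise was 0.58 ± 0.12 (SE), and against IL-1α, where no array detected Fzd3, it was at least 1.22-fold higher. Its probe passed only with the retinoic acid arrays counted, so no p-value is given for these differences. Lrp5, the co-receptor that binds Wnt with Frizzled, averaged 7.51 ± 0.22 untreated, 7.86 ± 0.06 with IL-1α and 7.999 ± 0.13 with retinoic acid. Its rise with retinoic acid was 0.49 ± 0.13 (adjusted p = 0.00978), of which batch 1 showed 0.25 and batch 2 0.72. The IL-1α arrays did not overlap the untreated ones either, at 0.35 ± 0.13, but the adjusted p was 0.0577. Fzd2 fell with IL-1α by 0.61 ± 0.12 (adjusted p = 0.00267), by 0.75 within batch 1 and 0.47 within batch 2, while the ranges overlapped across batches. With retinoic acid its difference was -0.28 ± 0.12 (adjusted p = 0.102).

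Fzd1 was called higher with retinoic acid at the edge of the threshold, by 0.50 ± 0.18 (adjusted p = 0.0496), and this rested on batch 2. Its untreated means were 4.51 in batch 1 and 5.60 in batch 2, and its retinoic acid means 4.63 and 6.49, so that the differences were 0.12 and 0.89. No array of batch 1 detected the probe, and the call was lost without any one of the 4 untreated arrays or of the retinoic acid arrays of batch 2. Retinoic acid exceeded IL-1α by 0.67 ± 0.18 (adjusted p = 0.0140), a call lost without any one of the IL-1α or retinoic acid arrays of batch 2. Fzd5, Fzd6, Fzd7, Fzd8 and Lrp6 were called in no comparison of treatments. Their differences from untreated ran from -0.19 (Fzd8) to 0.14 (Fzd5) with retinoic acid and from -0.28 (Fzd8) to 0.35 (Fzd5) with IL-1α. The standard errors were 0.12 for Fzd6, 0.16 for Fzd5 and 0.17 for Fzd7, Fzd8 and Lrp6. Fzd6 was detected on 4 arrays and Lrp6 on 6, none of them in batch 1, so their batch 1 values lie at background.

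Among the secreted inhibitors, Frzb, Sfrp5 and Wif1 were lower with either treatment. Frzb read 9.30, 9.21, 10.78 and 11.14 on untreated arrays. With IL-1α it read 6.51, 6.57, 8.15 and 8.02, and with retinoic acid 6.84, 6.69, 7.69 and 7.49. Every treated array lay below every untreated one. Frzb fell by 2.93 ± 0.18 with retinoic acid, a 7.63-fold difference (adjusted p = 5.55e-08), and its difference with IL-1α was -2.80 ± 0.18, a 6.94-fold difference (adjusted p = 2.34e-07). Retinoic acid minus IL-1α was -0.14 ± 0.18 (adjusted p = 0.617), with an unadjusted 95% interval of -0.52 to 0.25.

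Sfrp5 went from a bright probe to background. Untreated arrays read 8.50, 8.81, 8.40 and 8.12. IL-1α arrays read 4.52, 4.86, 4.81 and 5.45, of which 1 was detected, and retinoic acid arrays 4.50, 4.48, 4.47 and 4.42, of which none was. The untreated arrays lay far above both treatments. Untreated cartilage was at least 9.64-fold higher than with retinoic acid. Sfrp5 fell by 3.55 ± 0.19 on the log2 scale with IL-1α, with 3 of the 4 IL-1α values not above background. Since the probe passed only with its untreated arrays counted, no p-value is given for these differences. All 4 IL-1α values exceeded the 4 retinoic acid values, though by a difference that was not called (adjusted p = 0.0915).

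Wif1, Wnt inhibitory factor 1, read 9.23, 9.41, 10.98 and 11.60 on untreated arrays, 7.07, 7.14, 9.62 and 9.54 with IL-1α, and 7.16, 7.13, 8.84 and 8.91 with retinoic acid. In each batch both treatments lay below untreated. Wif1 fell by 2.30 ± 0.17 with retinoic acid (adjusted p = 2.47e-07), with no overlap, and its difference with IL-1α was -1.96 ± 0.17 (adjusted p = 2.85e-06). The IL-1α arrays of batch 2 overlapped the untreated arrays of batch 1, and the exact permutation p that ignores batch was 0.171. Within batches the IL-1α differences were -2.22 and -1.71. Retinoic acid minus IL-1α was -0.33 ± 0.17 (adjusted p = 0.151).

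Dkk3 and Sfrp1 moved up with retinoic acid and down with IL-1α. Dkk3, a divergent Dickkopf protein, read 8.83, 8.63, 9.50 and 9.42 untreated, 7.74, 7.91, 8.62 and 8.42 with IL-1α, and 9.71, 9.72, 11.49 and 11.33 with retinoic acid. All IL-1α arrays were below and all retinoic acid arrays above the untreated ones. The rise with retinoic acid was 1.47 ± 0.19 (adjusted p = 6.05e-05), the fall with IL-1α -0.92 ± 0.19 (adjusted p = 0.00330), and retinoic acid exceeded IL-1α by 2.39 ± 0.19, or 5.24-fold (adjusted p = 7.73e-07). A second Dkk3 probe, detected on 2 arrays, averaged 4.58 untreated, 4.58 with IL-1α and 5.13 with retinoic acid and did not pass the detection requirement.

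Sfrp1 read 5.60, 5.42, 5.39 and 5.68 on untreated arrays, 5.10, 5.19, 4.87 and 4.88 with IL-1α, and 6.98, 7.06, 6.82 and 6.93 with retinoic acid. The values of the 3 treatments did not overlap. It rose by 1.43 ± 0.12 with retinoic acid (adjusted p = 8.69e-07). No IL-1α array detected it, untreated cartilage was at least 1.21-fold higher than with IL-1α (adjusted p = 0.00586), and retinoic acid was at least 3.24-fold higher than IL-1α (adjusted p = 5.54e-08). A second Sfrp1 probe, detected on all 4 retinoic acid arrays and on 1 other, averaged 4.81 untreated, 4.71 with IL-1α and 5.50 with retinoic acid, too near background to show a fall with IL-1α. The IL-1α call was lost when the arrays were scaled to one median and when the mean of both probes was tested.

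**Figure D3:**
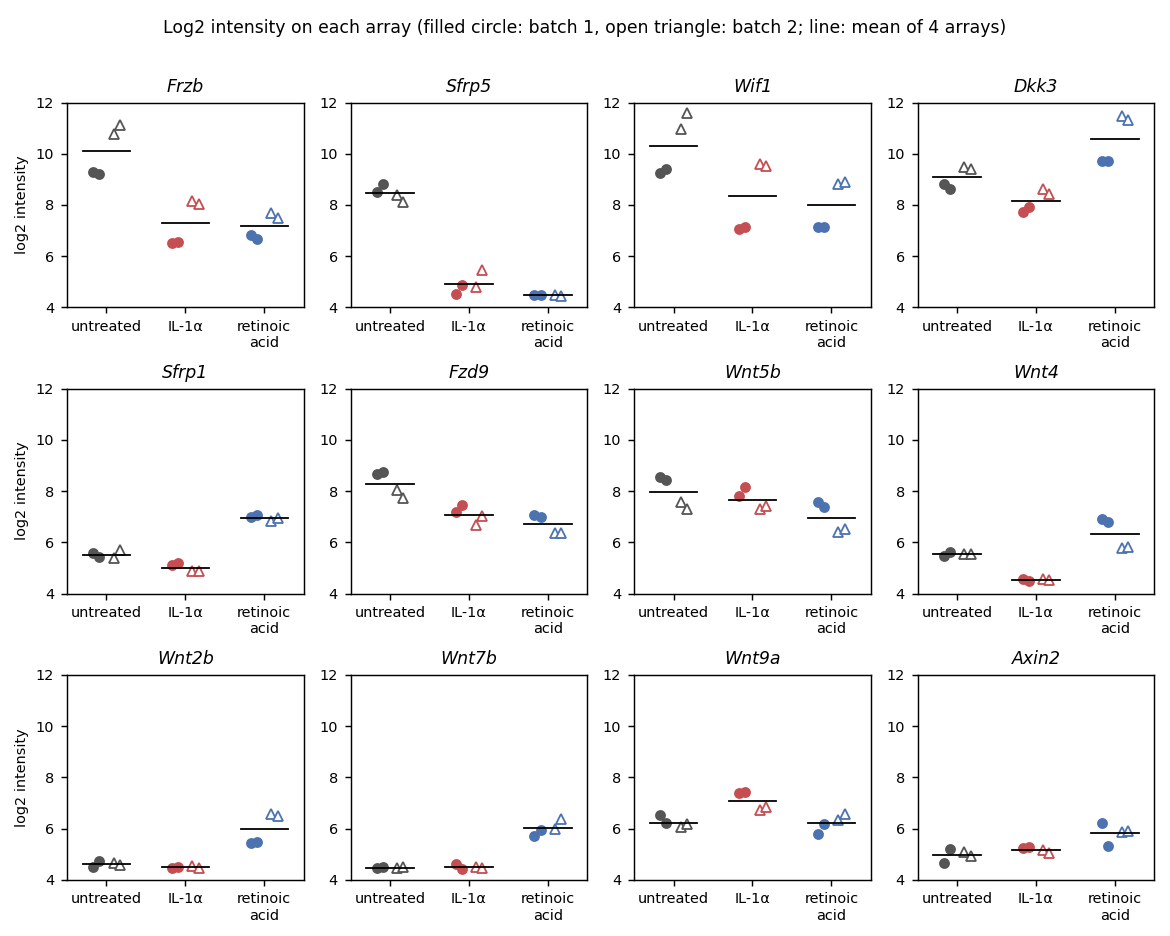
Log2 intensity on each of the 12 arrays for 12 of the genes, by treatment, with filled circles for batch 1, open triangles for batch 2 and lines for the mean of 4 arrays. Frzb, Sfrp5, Wif1 and Fzd9 are highest on untreated arrays, Dkk3, Sfrp1 and Wnt4 are highest with retinoic acid and lowest with IL-1α, and Wnt2b and Wnt7b leave the background with retinoic acid alone.

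Axin2, a feedback component that beta-catenin itself induces, was dim throughout, detected on 7 of 12 arrays. It averaged 4.96 ± 0.24 (SD, n = 4) untreated, 5.18 ± 0.10 with IL-1α and 5.82 ± 0.38 with retinoic acid. Retinoic acid raised it by 0.86 ± 0.19 (SE, adjusted p = 0.00276) with no overlap. Batch 1 was uneven, with 6.22 and 5.31 under retinoic acid beside 4.64 and 5.21 without treatment. Fitted alone, batch 1 did not give the call (0.84, adjusted p = 0.0623), whereas batch 2 did (0.88, adjusted p = 0.00172). For Axin2 the IL-1α difference from untreated was 0.22 ± 0.19 (adjusted p = 0.410). Its rise over IL-1α of 0.64 ± 0.19 (adjusted p = 0.0178) was lost without any one of 3 arrays, the first retinoic acid array of batch 1 and the second retinoic acid and IL-1α arrays of batch 2. Lef1, a nuclear partner of beta-catenin, was detected on 5 of 12 arrays. It fell by 0.58 ± 0.18 with retinoic acid and by 0.55 ± 0.18 with IL-1α, with overlapping arrays in both. Its probe passed only with the untreated arrays counted, so no p-value is given for these differences. In batch 1 these differences were -0.13 and -0.29, in batch 2 -1.02 and -0.80. No array of batch 1 detected the probe, so its batch 1 values lie at background. The other Lef1 probes did not pass and were detected on at most 1 array. The retinoic acid call was lost without any one of the 4 untreated and retinoic acid arrays of batch 2, and the IL-1α call without any one of 5 arrays, the 4 untreated and IL-1α arrays of batch 2 and the second IL-1α array of batch 1.

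Other genes of the pathway were taken from a list of 73 symbols, of which 64 were on the array and 44 passed the detection requirement. With retinoic acid 13 were higher, 9 lower and 22 not called, where 18.2% of all probes were higher and 17.1% lower. With IL-1α 8 were higher, 16 lower and 20 not called, where the shares were 15.2% and 14.1%. Between retinoic acid and IL-1α the counts were 16, 11 and 17, beside 15.2% higher and 15.8% lower. The 8 genes of this list with the largest called change in any of the 3 comparisons were Wisp2, Dact1, Tnfrsf11b, Cd44, Tnfrsf19, Celsr2, Celsr3 and Twist1. Wisp2 (a CCN matricellular protein) averaged 11.34 ± 0.13 (SD, n = 4) untreated, 10.61 ± 0.12 with IL-1α and 13.53 ± 0.14 with retinoic acid, and Dact1, which binds Dishevelled, 8.02 ± 0.26, 6.92 ± 0.34 and 10.01 ± 0.31. Each was called higher with retinoic acid, by 2.18 and 1.99, and lower with IL-1α, by -0.73 and -1.09. Tnfrsf19, a TNF receptor family member, followed with 0.60 and -1.02, and retinoic acid lay above IL-1α by 1.62. Tnfrsf11b, the decoy receptor osteoprotegerin, was lower by -2.43 with retinoic acid and -0.79 with IL-1α, and the planar polarity cadherin gene Celsr2 by -1.40 and -1.19. Celsr2 was detected on 4 untreated arrays but on only 1 IL-1α array and 1 retinoic acid array. Its probe passed only with the untreated arrays counted, so its place among the 8 is description. Cd44, a hyaluronan receptor, was higher with IL-1α by 1.65 and differed by 0.01 with retinoic acid (adjusted p = 0.941). Celsr3 was higher with IL-1α by 1.15 and differed by -0.20 with retinoic acid. It was detected on 4 IL-1α arrays, 2 untreated arrays and no retinoic acid array. Its probe passed only with the IL-1α arrays counted, so no p-value is given and its place among the 8 is description. The transcription factor gene Twist1 was higher with retinoic acid by 1.28 and differed by 0.21 with IL-1α (adjusted p = 0.182).

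The effect of retinoic acid differed between the batches for 4 of the 25 genes, beside 2.86% of all probes, and that of IL-1α for 1, beside 4.82%. Dkk3 rose by 0.99 in batch 1 and 1.95 in batch 2 (difference 0.97 ± 0.21, adjusted p = 0.0194). Frzb moved by -2.49 and -3.37 (difference -0.88 ± 0.22, adjusted p = 0.0468). Wnt4 rose by 1.30 and 0.27 (difference -1.04 ± 0.19, adjusted p = 0.00841). Wnt2b, not detected untreated, averaged 5.44 in batch 1 and 6.52 in batch 2 with retinoic acid. Its probe passed through the retinoic acid arrays alone, so no p-value is given and the count of 4 is description. Fzd5 differed from untreated by 0.77 in batch 1 and -0.07 in batch 2 with IL-1α (difference -0.84 ± 0.20, adjusted p = 0.0308), a call lost without any one of 6 of the 8 untreated and IL-1α arrays. The 4 retinoic acid calls became 1, Wnt2b, without the first retinoic acid array of batch 1, and became Wnt2b and Wnt4 without the first untreated array or the second retinoic acid array of batch 1, or without the first retinoic acid array of batch 2. Frzb was called in 1 of the 12 fits that each left out 1 array, and was not called when the replicate block was added to this test. Over the treatments, 10 of the 25 genes were higher and 4 lower in batch 2, where 76.3% of all probes were called in either direction. Wif1 had the largest such difference, 4.16-fold higher in batch 2, followed by Frzb at 2.57-fold higher, Fzd2 at 2.40-fold lower, Fzd1 at 2.39-fold higher and Dkk3 at 2.06-fold higher. With no batch term in the fit, the calls of Wif1, Wnt5b, Fzd1, Lef1, Lrp5 and Wnt4 with retinoic acid and of Wif1, Dkk3, Fzd2 and Lef1 with IL-1α were lost.

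**Figure D4:**
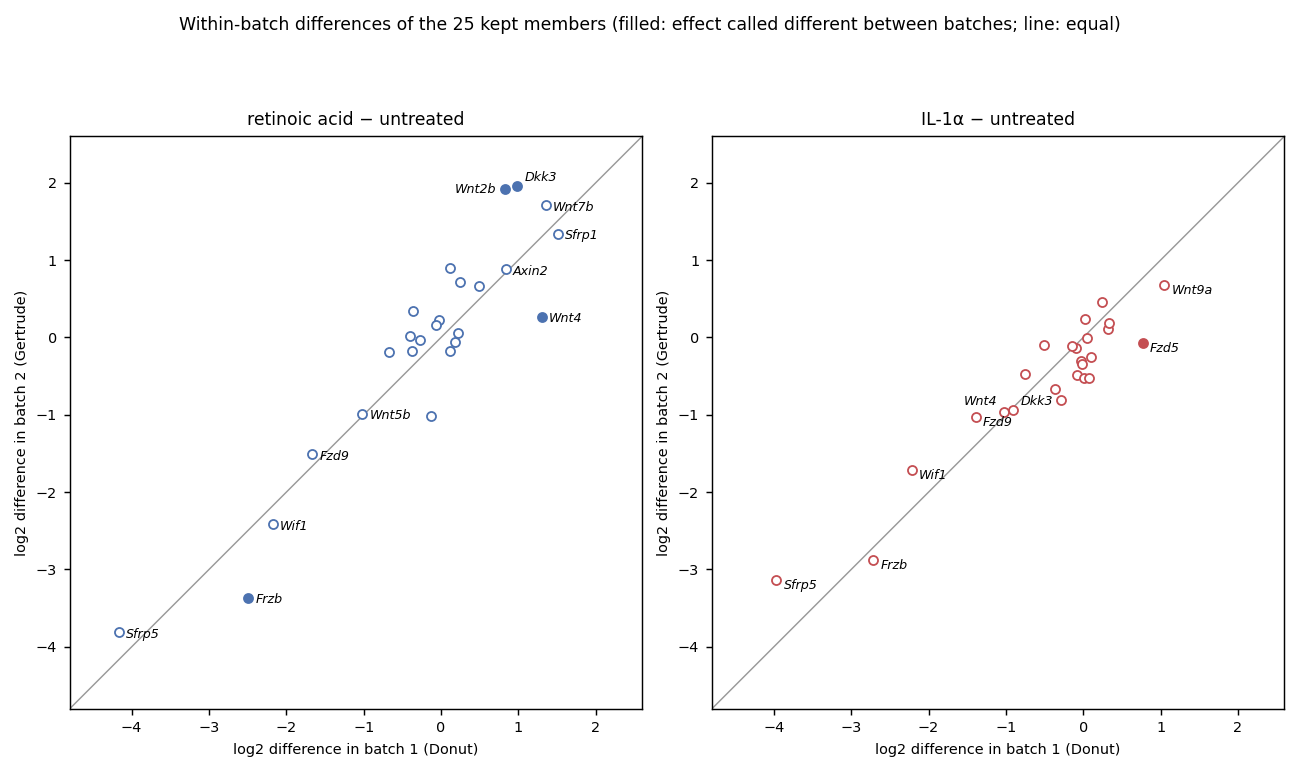
Within-batch log2 differences from untreated for the 25 genes, with batch 1 (Donut) on the horizontal and batch 2 (Gertrude) on the vertical axis, for retinoic acid (left) and IL-1α (right). The line marks equal differences and filled points were called different between batches: Wnt2b, Dkk3, Wnt4 and Frzb with retinoic acid, Fzd5 with IL-1α.

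Markers of several cell types also moved with treatment. In these bulk samples fewer cells of a type and less RNA per cell cannot be told apart. Of 8 chondrocyte markers that passed, of 9 on the array, all 8 were lower with retinoic acid and 6 with IL-1α. Their summed intensity, on a log2 scale, was 15.9 to 16.2 on untreated arrays, 15.1 to 15.5 with IL-1α and 13.3 to 13.9 with retinoic acid, and Matn3 was detected on no array. Acan, the gene of aggrecan, averaged 13.26 untreated, 11.70 with IL-1α and 9.04 with retinoic acid. Of 4 hypertrophic chondrocyte markers 3 were lower with each treatment, and Spp1 was higher with retinoic acid by 0.52 (adjusted p = 0.0217), with summed levels of 13.7 to 14.6 untreated, 12.8 to 13.9 with IL-1α and 13.03 to 13.81 with retinoic acid. Fibroblast or perichondrium markers, 4 of 5 that passed (Postn was detected on no array), were lower for 3 and higher for 1 with retinoic acid and lower for 4 with IL-1α, at 10.2 to 11.1, 9.30 to 9.52 with IL-1α and 10.4 to 11.7 with retinoic acid. Neutrophil or marrow markers were lower for 5 of 7 with retinoic acid, at 13.2 to 14.0 untreated and 12.5 to 13.8, and macrophage markers were higher for 3 of 4 with retinoic acid, at 10.6 to 11.4 untreated and 11.2 to 12.1, with Ptprc detected on no array. Macrophage markers were higher for 2 and lower for 1 of 4 with IL-1α, at 11.9 to 12.7. Cycling cell markers were lower for 3 of 3 with IL-1α, at 8.48 to 9.41 untreated and 8.05 to 8.26. Osteoblast markers were lower for 2 of 3 with each treatment, endothelial markers for 1 of 5 with retinoic acid and 2 of 5 with IL-1α, Prg4 of the surface zone with retinoic acid, Acta1 of muscle with IL-1α and Adipoq of adipocytes with each, and no erythroid marker of the 3 was called against untreated. Acta1 was detected on 3 untreated arrays, 1 retinoic acid array and no IL-1α array, and passed only with the untreated arrays counted. The other muscle marker, Ckm, was detected on no array. The part of these shifts in the levels of Frzb, Sfrp5, Wif1, Dkk3, Sfrp1 and the other genes was not tested.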

How the data were processed

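Total RNA was measured on Illumina mouse bead arrays. The deposited table holds non-normalised probe intensities, summarised by the authors, and a detection value per probe and array, a fraction that the authors deposited as 1 minus the detection p. In R 4.3.3, limma 3.58.1 was used as the study's methods state: neqc (normexp background correction, offset 16, quantile normalisation, log2), then removal of probes not detected. A probe stayed when 4 or more of the 12 arrays had a detection p under 0.05, which left 18200 of 46632. Treatment and a 4-level batch-and-replicate factor entered the linear model, with Benjamini-Hochberg adjustment over the probes that stayed. Batch effects on treatment differences were tested with 6 group means. Each gene was represented by its brightest kept probe. Every gene called in a treatment comparison was named, with single-array values for those with a log2 change of at least 1. Other pathway genes were counted, with the 8 largest called changes named. The genes and lists were chosen with earlier results of these data known. The code was tested on simulated data. Alternatives covered background correction, scaling, offset, detection filters, the batch and replicate factor, probe averaging, single batches and leaving out each array. The genome build behind the probe annotation is not given in the sources used here.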

Additional observations from a re-analysis of the deposited data

Results flagged for a closer look

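In the 75 groups of 4 arrays examined, 1 held an array far from the other 3, where chance alone gives about 1 in 20. This was Wnt5a on the second untreated array of batch 2, at a log2 intensity of 7.43, while the other untreated arrays read 7.06, 7.13 and 7.07.

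The effect of a treatment differed between the batches for 5 genes, by the limma interaction test. The effect of retinoic acid in batch 2 minus that in batch 1 was 0.97 for Dkk3, -0.88 for Frzb, 1.09 for Wnt2b and -1.04 for Wnt4. For Wnt2b, whose untreated probe was at background, this is the difference between the retinoic acid arrays. The effect of IL-1α in batch 2 minus that in batch 1 was -0.84 for Fzd5. Batch and mouse line cannot be told apart.

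Of the genes below the detection requirement, Fzd10 averaged 7.28 and Sfrp4 averaged 6.83 on the retinoic acid arrays of batch 2, whereas no untreated or IL-1α array detected either. In batch 1 the retinoic acid means were 5.33 and 4.68. A second Fzd10 probe averaged 5.25 over the 4 retinoic acid arrays and 4.60 over the untreated ones.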

How the results depend on the processing

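Of 36 called differences between treatments, none reversed under any alternative run that tested them, and 18 were called in every run that tested them. A gene that failed the detection filter of a run was not tested in it, such as Sfrp5 under detection on all 12 arrays. Limma calls for retinoic acid against untreated fell from 15 to 6 where detection on all 12 arrays was required (13 genes left) and to 9 with no batch or replicate factor. For IL-1α against untreated they fell from 10 to 6 with no batch or replicate factor. For retinoic acid against IL-1α they fell from 11 to 5 and 7 under the same settings. Leaving out single arrays gave 13 to 15, 9 to 11 and 8 to 12 calls. Without the replicate block but with batch, the calls were 15, 11 and 12. The same replicate numbers of a batch gave deviations that correlated between -0.11 and 0.39, so the numbers are not shown to pair arrays.

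Effects that differed between batches numbered 1 with retinoic acid under detection on all 12 arrays and 1 to 4 with single arrays left out, against 4. Scaling to one median also gave 4, of which 1 was shared (Wnt2b), the rest being Fzd1, Lef1 and Wnt7b. With IL-1α there were 3 under that scaling, 0 with the mean of a gene's kept probes (3 at an unadjusted p under 0.05) and 0 to 2 with single arrays left out, against 1. Leaving out an array leaves a lone array, assumed to vary like the others. With the replicate block, an alternative added after seeing the data, there were 3 (Dkk3, Wnt2b and Wnt4) and 1. Batch 2 against batch 1 gave 9 calls under detection on all 12 arrays and 9 under a detection p of 0.01, against 14, and 13 to 15 with single arrays left out. Requiring more detection left fewer genes to test, and the other causes were not tested. Dim probes, such as those of Axin2, Lef1, Fzd1 and Wnt6, lie near background, where a fold is understated.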
